A study of Mus musculus with 4 samples.

Results

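The genes of the MHC class I pathway were followed across macrophages with and without Trim24 and with and without IL-4. They were H2-K1, H2-D1, B2m, Tap1, Tap2, Tapbp, Psmb8, Psmb9, Psmb10 and Nlrc5, chosen by symbol through their NCBI gene IDs, and made up 10 of the 16403 gene IDs listed in the data. Reads were found for all 10 in each of the 4 libraries. Peritoneal macrophages of C57BL/6 mice, elicited with 4% thioglycolate and collected 4 days later, were left to adhere for 4 h and kept in DMEM with 0.5% FBS. A single library came from each of 4 groups, which were wild-type cells without treatment, wild-type cells given mouse IL-4 at 20 ng/mL for 6 h, knockout cells without treatment and knockout cells given the same IL-4. The wild-type mice were littermates, and the knockout (labelled TIF1a-/-, TIF1a being another name of Trim24) joined floxed Trim24 alleles to LysM-Cre, which is active in myeloid cells, so that deletion was limited to that lineage. The mice were 6 to 8 weeks old, and whether cells of several mice were pooled is not given in the sources used here.

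Class I molecules carry short peptides from inside the cell to its surface, where CD8 T cells read them. Proteasomes cut proteins into peptides, the TAP transporter moves the peptides into the endoplasmic reticulum, and tapasin holds TAP beside an empty class I molecule until a peptide is bound. A class I molecule consists of a polymorphic heavy chain and an invariant light chain, beta-2-microglobulin. Interferons raise most of these genes together, through IRF1 and the transactivator NLRC5, and also swap 3 catalytic proteasome subunits for inducible ones, which makes the immunoproteasome. IL-4 acts in macrophages mainly through STAT6 and drives the alternative, or M2, programme.

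Of the 10 genes, 7 lie on chromosome 17, in or next to the mouse MHC, 2 on chromosome 8 (Psmb10 and Nlrc5) and 1 on chromosome 2 (B2m). Positions here and below are those of RefSeq in GRCm38.p6. The DNA just upstream of the start was read for the 8 members with an entry in the RefSeq promoter table, which Tap2 and Nlrc5 lacked. The stretches of 5 genes are shown, since Psmb10 was the member that moved most with IL-4, Psmb8 and Psmb9 are built into the same proteasome, and the heavy chains carry the peptides. Each ends at the last base before the start that the table uses and runs 5′ to 3′ on the strand of the named gene. Capitals mark matches to 4 motifs, which are TTC and GAA with 4 bases between them (the spacing preferred by STAT6), TTC and GAA with 3 bases between them (the spacing of other STAT proteins), GAAA repeated after 2 bases (the core of interferon response elements) and GGGATTCCC (an NF-kB site).
Psmb10: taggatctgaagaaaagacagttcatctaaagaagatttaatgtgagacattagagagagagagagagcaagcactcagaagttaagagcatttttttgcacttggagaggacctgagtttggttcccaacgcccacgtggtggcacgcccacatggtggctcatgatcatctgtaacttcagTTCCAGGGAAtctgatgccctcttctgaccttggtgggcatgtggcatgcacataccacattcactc
Psmb8: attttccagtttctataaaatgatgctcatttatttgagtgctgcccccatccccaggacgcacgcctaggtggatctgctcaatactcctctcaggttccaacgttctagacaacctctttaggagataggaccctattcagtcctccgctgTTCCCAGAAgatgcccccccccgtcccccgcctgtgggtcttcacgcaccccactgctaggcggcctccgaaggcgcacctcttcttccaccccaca
Psmb9: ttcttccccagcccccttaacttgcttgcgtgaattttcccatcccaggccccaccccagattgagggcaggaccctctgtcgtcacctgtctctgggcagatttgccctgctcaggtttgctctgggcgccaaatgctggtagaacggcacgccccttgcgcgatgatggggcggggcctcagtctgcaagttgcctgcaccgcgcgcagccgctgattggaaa
H2-K1: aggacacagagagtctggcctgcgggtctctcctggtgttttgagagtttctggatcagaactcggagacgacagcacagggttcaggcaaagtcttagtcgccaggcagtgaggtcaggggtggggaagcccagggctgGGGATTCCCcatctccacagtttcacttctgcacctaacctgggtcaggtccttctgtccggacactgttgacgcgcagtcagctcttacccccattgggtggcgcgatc
H2-D1: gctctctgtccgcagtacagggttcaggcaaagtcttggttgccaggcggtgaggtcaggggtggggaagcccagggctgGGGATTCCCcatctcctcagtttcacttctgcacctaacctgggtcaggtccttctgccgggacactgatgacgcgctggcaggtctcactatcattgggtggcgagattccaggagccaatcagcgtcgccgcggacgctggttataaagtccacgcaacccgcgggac
These stretches lie at chr8:105938393-105938642 (minus strand), chr17:34197945-34198194 (plus), chr17:34187331-34187555 (minus), chr17:34000348-34000597 (minus) and chr17:35262844-35263093 (plus), in the order shown. The Psmb9 stretch spans all 225 bases between Psmb9 and Tap1, which are transcribed away from each other, and so is the upstream DNA of both genes, and it held none of the 4 motifs. For H2-K1 the table's first transcribed base, 34000347, lies inside the gene span given below, which ends at 34000619 on the minus strand, so its stretch is upstream of that start but within the annotated gene.

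Psmb10 was the only member whose 300-base window, from 250 bases before to 50 bases after the start, held TTC and GAA with 4 bases between them. The match reads TTCCAGGGAA and begins 67 bases before the start, and 6.95% of all 32851 RefSeq promoter windows hold such a match. Psmb8 held TTCCCAGAA, with 3 bases between, which begins 97 bases before its start and has a counterpart in 8.30% of windows. The interferon core in this exact spelling was found in B2m only, as GAAACTGAAA, 139 bases before the start (3.44% of windows). Interferon response elements spelled otherwise were not searched for, so the other members cannot be said to lack one. GGGATTCCC was found in H2-K1 and H2-D1, at 110 and 170 bases before their starts, and in 0.353% of windows. CCAAT, the box bound by NF-Y, was found on either strand in 6 of the 8 members and in 37.4% of windows. The matches of Tap1 and Psmb9, 222 and 8 bases before their starts, are the same box in their shared upstream DNA, counted for both. All motifs were searched on both strands, no matches overlapped within a member, and a match is a run of letters and not a measured binding site.

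Library totals ran from 11026033 to 11250099 expected reads, at which 3 reads, the smallest number taken as shown, correspond to 0.267 to 0.272 CPM (reads scaled to a library total of 1000000). Trim24 had 175, 103, 4 and 10 reads in untreated wild-type, IL-4-treated wild-type, untreated knockout and IL-4-treated knockout cells, the order in which values are given below. Arg1, a gene known to rise with IL-4, was at 1.84, 463, 5.40 and 733 FPKM. Of the macrophage markers, 7 of 7 were listed, with a summed level of 8287 to 14840 FPKM that was lower in both knockout libraries through Lyz2, the gene into which LysM-Cre is inserted (11289, 10811, 5193 and 4761 FPKM). Summed markers of T cells were at 1.14 to 2.49 FPKM (5 of 5 listed), of B cells at 4.08 to 6.52 (4 of 4), of dendritic cells at 2.51 to 2.64 (4 of 4) and of NK cells at 0.00 to 0.21 (3 of 4), while 4 of 5 neutrophil markers were not listed. Fibroblast and mesothelial markers (6 of 6 listed) ran from 14.5 to 34.4 FPKM, and their part in the results was not tested. FPKM divides reads by transcript length and library total, so it can be compared between genes.

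The members together took 1.12% to 1.22% of all reads in the 4 libraries, and B2m, H2-D1 and H2-K1 held 89.8% to 93.5% of those. The other members were at intermediate to low levels, down to 1.22 FPKM for Nlrc5. In untreated wild-type cells the order by FPKM was B2m, H2-D1, H2-K1, Tapbp, Psmb8, Psmb10, Tap2, Psmb9, Tap1 and Nlrc5. Psmb8 and Psmb10 in this order had overlapping 95% Wilson intervals, as did Psmb9 and Tap1, and all other neighbours were separate. With IL-4, in both genotypes, Psmb10 stood between H2-K1 and Tapbp. Between their highest and lowest library 6 members differed by 1.07- to 1.26-fold, Tapbp by 1.33-fold, Psmb9 by 1.72-fold, Nlrc5 by 2.32-fold and Psmb10 by 5.10-fold. There was 1 library in each group, so no value below has a replicate check, the tests compare the reads of 2 libraries and not conditions, and intervals and standard errors (SE) cover counting error only. In bulk libraries, fewer expressing cells and less RNA per cell cannot be told apart.

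**Figure D1:**
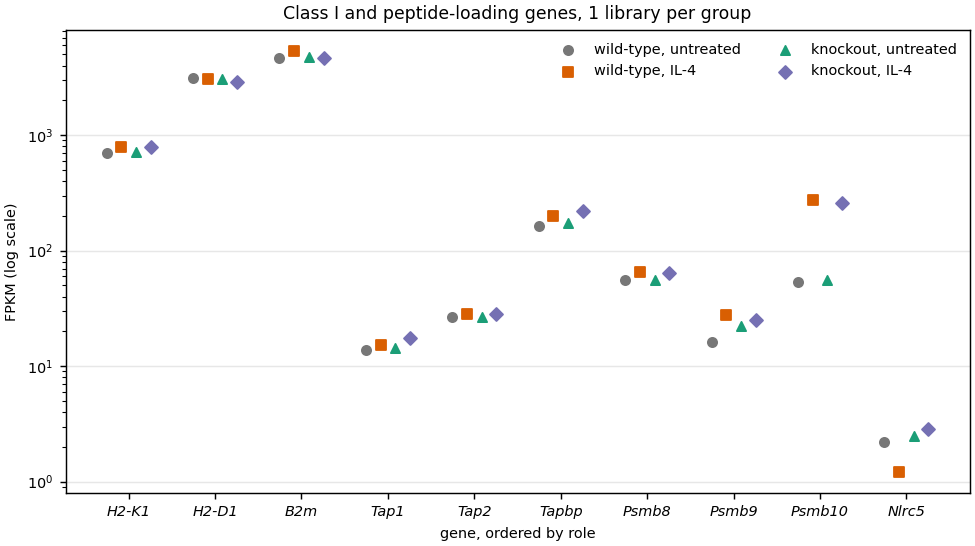
FPKM of the 10 genes (log axis) in the 4 libraries, 1 point per library, ordered by role from heavy chains to the transactivator. Psmb10 moves from 53.8 to 274 FPKM in wild-type and from 55.3 to 257 FPKM in knockout cells when IL-4 is given, Nlrc5 is lowest in IL-4-treated wild-type cells, and the heavy and light chains are level.

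To find which members IL-4 changes, the treated library of each genotype was set against the untreated one. Reads of each gene were compared by Fisher's exact test (two-sided), with Benjamini-Hochberg adjustment over every gene that had a read, and a call needed both an adjusted p below 0.05 and more than a 1.5-fold change in FPKM + 0.1. The added 0.1 makes changes of scarce genes look smaller. In wild-type cells 2 of 10 members were called higher with IL-4, where 4.91% of all 15593 genes were, and 1 of 10 was called lower, where 7.88% of all genes were. In knockout cells 1 of 10 was called higher (5.29% of 15738 genes) and 0 of 10 lower (4.03%). Whatever the fold, 8 of 10 had an adjusted p under 0.05 in wild-type cells, where 32.8% of all genes did, and 5 of 10 in knockout cells, where 25.0% did. A gene with many reads reaches a low p-value at a small fold, and H2-D1 was among the 8 at a log2 ratio of -0.03. All 10 members averaged 1 FPKM or more, as did 10519 tested genes in wild-type and 10524 in knockout cells. Of those genes 6.08% were called higher and 9.38% lower in wild-type cells, and 6.45% and 5.03% in knockout cells. The median log2 ratio of the members was 0.19 in wild-type and 0.17 in knockout cells, beside -0.03 and 0.00 over all genes tested. With the trend over transcript length removed that is described below, the medians of the members were 0.08 and 0.14, beside 0.0014 and 0.0035 over all genes.

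**Figure D2:**
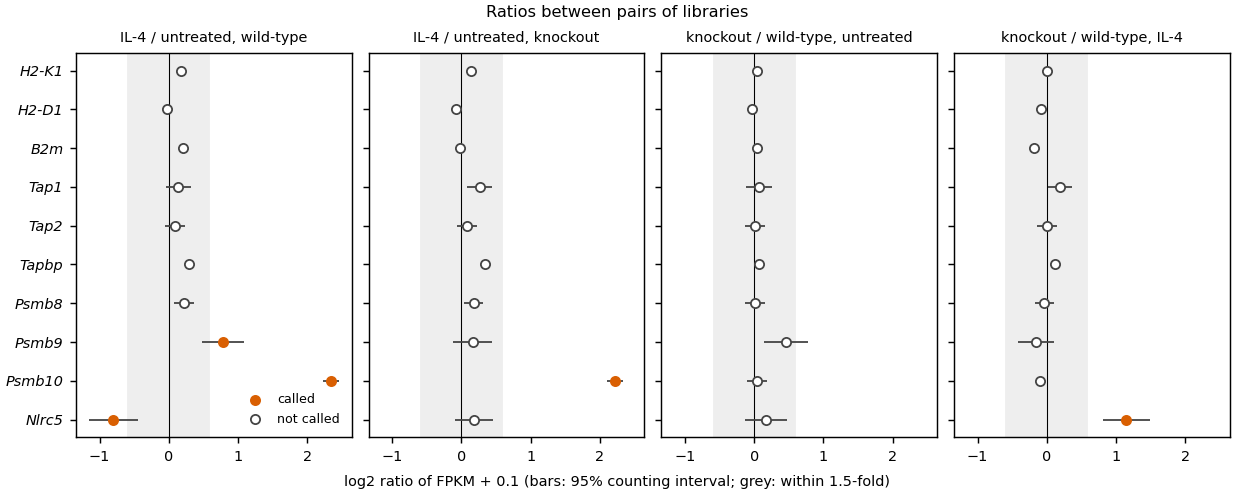
Log2 ratios of FPKM + 0.1 for the 10 genes in the 4 comparisons, with 95% counting intervals; the grey band is a fold within 1.5 and orange points are called. Psmb10 is at 2.35 and 2.22 with IL-4, and Nlrc5 lies at 1.15 in the comparison of genotypes under IL-4.

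The immunoproteasome subunit Psmb10 (MECL-1, gene ID 19171, chr8:105935728-105938392) was raised by IL-4 in both genotypes. It was at 53.8 FPKM in untreated wild-type cells, 274 in IL-4-treated wild-type cells, 55.3 in untreated knockout cells and 257 in IL-4-treated knockout cells, on 746, 3879, 766 and 3562 reads. Both treated libraries stood far above both untreated ones, and its rank among all genes moved from 1258 to 260 in wild-type and from 1237 to 265 in knockout cells. The log2 ratio was 2.35 (SE 0.06) in wild-type and 2.22 (SE 0.06) in knockout cells, a fold of 5.09 and 4.65, with adjusted p-values of Fisher's exact test too small to be held as a number. The responses of the genotypes differed by -0.13 (knockout minus wild-type, 95% counting interval -0.29 to 0.03, adjusted p of the normal test of the difference 0.321). A smaller response in the knockout of up to 0.29 log2 units was therefore within counting error.

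Psmb8 and Psmb9, the other inducible subunits, gave much smaller values. Psmb8 (LMP7, gene ID 16913, chr17:34198195-34201454) was at 55.9, 65.1, 56.2 and 63.5 FPKM on 745, 885, 749 and 845 reads. Its log2 ratio with IL-4 was 0.22 (SE 0.07) in wild-type and 0.17 (SE 0.07) in knockout cells, under the 1.5-fold threshold in both. With the trend over transcript length removed that is described below, these values were 0.08 and 0.14, both within counting error after adjustment. Psmb8 and Psmb10 thus stood at like levels without IL-4 and apart with it.

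Psmb9 (LMP2, gene ID 16912, chr17:34182030-34187330) was at 16.2, 27.9, 22.3 and 25.0 FPKM on 140, 246, 193 and 216 reads. The untreated wild-type library was the low one, and the other 3 lay close together, with Wilson intervals of 19.3 to 24.8, 15.2 to 20.1 and 17.1 to 22.4 CPM against 10.8 to 15.0 CPM. In wild-type cells Psmb9 was higher with IL-4, with a log2 ratio of 0.78 (SE 0.15, Fisher's exact test, adjusted p = 1.3e-06), and in knockout cells the log2 ratio was 0.16 (SE 0.14, adjusted p = 0.501). The wild-type call was lost at a fold above 2 and when a biological coefficient of variation of 0.2 was assumed. Without IL-4 the knockout value exceeded the wild-type value by 0.46 (SE 0.16, adjusted p = 0.0535), which was not called.

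The constitutive subunits that these 3 replace give a scale for the change. Psmb10 takes the place of Psmb7, and the ratio of their FPKM was 0.692, 2.73, 0.757 and 3.25 in the 4 libraries, with 95% counting intervals of 0.627 to 0.764, 2.55 to 2.92, 0.685 to 0.837 and 3.02 to 3.51. Psmb10 transcripts were thus fewer than Psmb7 transcripts without IL-4 and more abundant with it. The ratio of Psmb8 to Psmb5 was 0.561, 0.570, 0.650 and 0.669, and its intervals overlapped between treated and untreated cells of each genotype. Psmb9 remained far below Psmb6, with ratios of 0.0799, 0.131, 0.113 and 0.150, and its intervals were separate in wild-type cells (0.0673 to 0.0947 and 0.115 to 0.149) and touched in knockout cells (0.0979 to 0.131 and 0.130 to 0.172). Of the 3 constitutive subunits, the 11 other core subunits and the 5 activator and assembly genes (Psme1 to Psme4 and Pomp), 0 were called in any of the 4 comparisons, with medians under IL-4 of 0.20, 0.26 and 0.29 in wild-type and 0.11, 0.18 and 0.13 in knockout cells. In the knockout against wild-type cells with IL-4 the medians of these lists were -0.34, -0.20 and -0.11, with 0 of 3, 0 of 11 and 1 of 5 genes above 0. Log2 ratios of all genes followed transcript length in this comparison, a trend described below. It stood at -0.18, -0.16 and -0.17 for Psmb5, Psmb6 and Psmb7. With it removed these 3 genes were at -0.09, -0.19 and -0.18, and the medians of the lists were not computed. Psmb7 itself was at -0.34 there (SE 0.07) and Psmb10 at -0.09. Before removal of the trend, the higher ratio of Psmb10 to Psmb7 in treated knockout cells thus came with a lower value of Psmb7 and not a higher one of Psmb10. With the trend removed Psmb10 was at 0.05 and Psmb7 at -0.18 (adjusted p of 0.489 and 0.0606, exact binomial test).

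**Figure D3:**
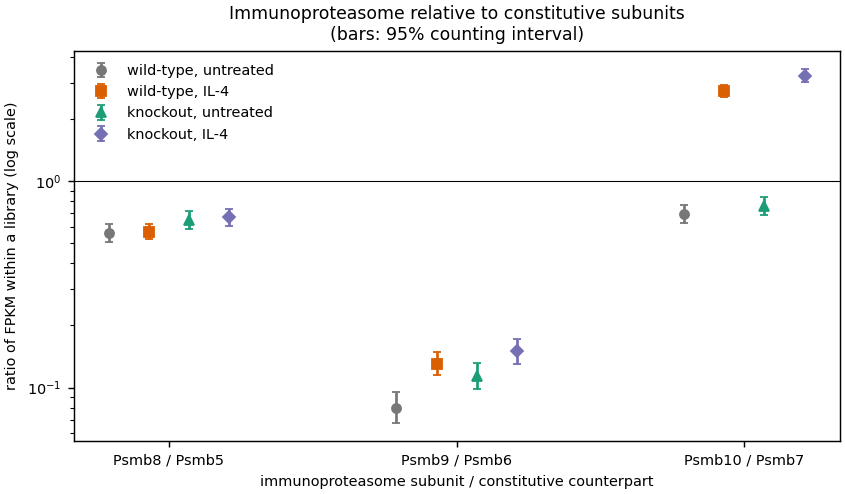
Ratio of FPKM of each immunoproteasome subunit to its constitutive counterpart within a library (log axis), with 95% counting intervals. Psmb10 / Psmb7 passes from 0.692 and 0.757 without IL-4 to 2.73 and 3.25 with IL-4, while Psmb8 / Psmb5 lies between 0.561 and 0.669 throughout.

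Nlrc5 (gene ID 434341, chr8:94434335-94527272), the transactivator that binds class I promoters together with the RFX and NF-Y complexes, was the scarcest member. It was at 2.20, 1.22, 2.49 and 2.83 FPKM on 171, 97, 193 and 219 reads. The IL-4-treated wild-type library was the low one (7.07 to 10.5 CPM, Wilson interval), and the other 3 overlapped (13.3 to 18.0, 15.2 to 20.1 and 17.4 to 22.7 CPM). In wild-type cells Nlrc5 was lower with IL-4, with a log2 ratio of -0.80 (SE 0.18, Fisher's exact test, adjusted p = 1.9e-05), and in knockout cells the log2 ratio was 0.18 (SE 0.14, adjusted p = 0.436). With 6945 bases its transcript is the longest of the 10, and log2 ratios of all genes followed transcript length in these libraries (Spearman's rho across 10519 genes -0.36 for IL-4 in wild-type cells). Once this trend was removed the wild-type value was -0.44 (adjusted p = 0.0314, exact binomial test), which is under the 1.5-fold threshold.

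**Figure D4:**
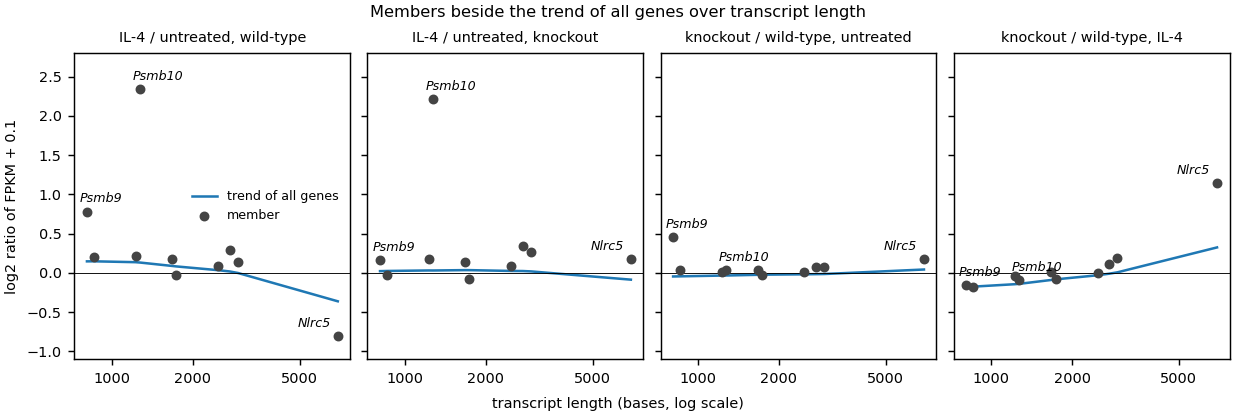
Log2 ratio of each of the 10 genes (points) against its transcript length (log axis), with the lowess trend of all genes at those lengths (line). At the length of Nlrc5 the trend is -0.36 for IL-4 in wild-type cells and 0.32 for the knockout with IL-4, and at the length of Psmb10 it is 0.13 and -0.14.

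The peptide transporter and its bridge varied little. Tap1 (gene ID 21354, chr17:34187556-34197225) was at 13.8, 15.2, 14.5 and 17.4 FPKM on 451, 507, 473 and 568 reads. Tap2 (gene ID 21355, chr17:34204479-34216321), its partner in the transporter, was at 26.6, 28.3, 26.8 and 28.4 FPKM. None of the log2 ratios of Tap1 and Tap2 with IL-4, 0.08 to 0.26, passed 1.5-fold, so Tap1 and Psmb9, which share their upstream DNA, were not both called in wild-type cells. Tapbp (tapasin, gene ID 21356, chr17:33919478-33929290) was at 164, 201, 172 and 219 FPKM, higher in each treated library than in either untreated one. Its log2 ratio with IL-4 was 0.29 (SE 0.03) in wild-type and 0.34 (SE 0.03) in knockout cells, beyond counting error (adjusted p of 1.1e-25 and 2.1e-36, Fisher's exact test) and under the 1.5-fold threshold.

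The heavy chains and the light chain were level. H2-K1 (gene ID 14972, chr17:33996012-34000619) was at 697, 785, 717 and 788 FPKM, and H2-D1 (gene ID 14964, chr17:35263094-35267497) at 3146, 3075, 3073 and 2900 FPKM. H2-K1 was a little higher in both treated libraries (log2 ratios 0.17 and 0.14), and H2-D1 a little lower (-0.03 and -0.08). The ratio of H2-D1 to H2-K1 was thus 4.51 and 4.28 without IL-4 and 3.92 and 3.68 with it. The wild-type value of H2-D1 was 0.0046 with TMM scaling. With the length trend removed H2-D1 was at -0.11 in wild-type and -0.12 in knockout cells, and H2-K1 at 0.08 and 0.10. B2m (gene ID 12010, chr2:122147687-122153082), the light chain shared by all class I molecules, was at 4645, 5331, 4779 and 4700 FPKM. Its highest value was in IL-4-treated wild-type cells, with a log2 ratio of 0.20 (SE 0.01) with IL-4 in wild-type and -0.02 (SE 0.01) in knockout cells, and the first fell to 0.05 once the length trend was removed.

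Heavy chain genes resemble each other so closely that short reads can match several of them, and RSEM divides such reads by a model. The expected count was whole in every library, to within 1e-09, for B2m, Psmb8, Psmb9, Psmb10 and Nlrc5, and in no library for H2-K1, H2-D1, Tap1, Tap2 and Tapbp. The same division was seen in the sequences: in the longest coding transcript of GENCODE vM21, 0.00% of 50-base windows of the first 5 genes occurred in transcripts of another gene. The shares were 8.79% for H2-K1, 14.3% for H2-D1, 0.861% for Tap1, 0.737% for Tap2 and 2.0% for Tapbp. With 100-base windows H2-K1 came to 0.00% and H2-D1 to 4.64%. The read length of the libraries and the transcript set used for counting are not given in the sources used here, so these window sizes are assumed, and only exact matches were counted. Whether counting used strand is not stated either. Psmb10 overlaps an antisense gene of GENCODE, Gm16156, that the files do not list, while B2m overlaps Patl2 (3 to 7 reads) and Nlrc5 overlaps 9330175E14Rik (5 to 10 reads).

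Of the other class I heavy chains 6 were measured in this way, and their shares of 50-base windows were 44.7% for H2-T22, 42.9% for H2-T10, 34.9% for H2-Q7, 28.8% for H2-T23, 24.3% for H2-Q4 and 3.23% for H2-T24, of which the last is below both H2-K1 and H2-D1. In the H2-Q group the counts of H2-Q7 and H2-Q9 differed between genotypes in opposite directions. Whether expression or the division of shared reads differed was not tested, and H2-Q9 is not among the 6 genes measured above. H2-Q7 was at 4.71, 9.24, 2.20 and 4.16 FPKM and H2-Q9 at 2.50, 4.39, 4.43 and 9.18 FPKM, so that in both treatments the knockout had less H2-Q7 (log2 ratios -1.06 and -1.13) and more H2-Q9 (0.80 and 1.05), all called by Fisher's exact test. The reads of H2-Q6 to H2-Q9 together came to 164, 283, 137 and 272. That sum differed between genotypes by -0.26 without IL-4 (95% counting interval -0.59 to 0.07, unadjusted p = 0.134) and -0.03 with IL-4 (-0.27 to 0.21, unadjusted p = 0.832, Fisher's exact tests), and was higher with IL-4 in wild-type (0.76, interval 0.48 to 1.04) and knockout cells (0.99, interval 0.70 to 1.29).

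**Figure D5:**
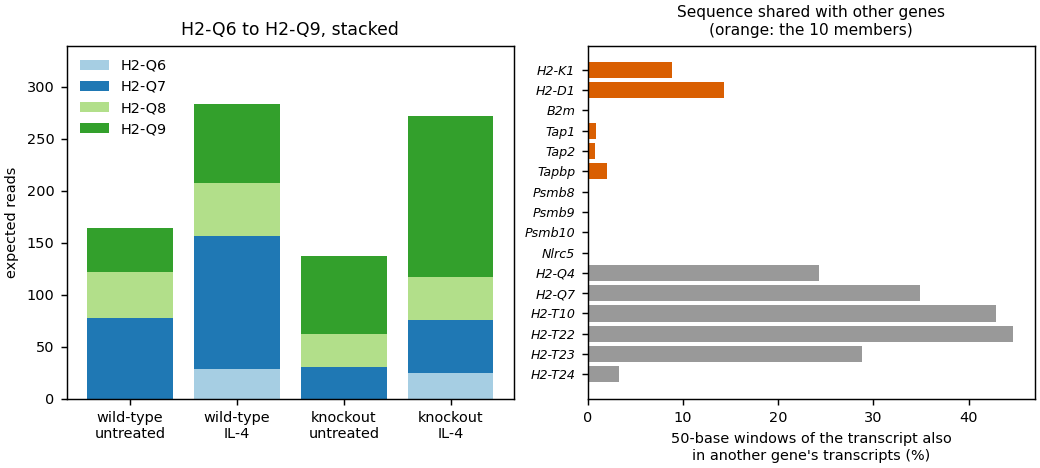
Left, expected reads of H2-Q6 to H2-Q9 stacked for each library, 164, 283, 137 and 272 in all. The counts of H2-Q7 and H2-Q9 differ between genotypes while the IL-4-treated sums are alike. Right, percent of 50-base windows of each transcript found in transcripts of other genes, 0.00% for 5 of the 10 members and 14.3% for H2-D1.

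Summed over all 17 listed H2-K, H2-D, H2-Q and H2-T genes, which does not depend on how reads were divided among them, class I heavy chains took 0.752%, 0.769%, 0.752% and 0.743% of reads. The log2 ratio of the sum was 0.03 for IL-4 in wild-type cells, -0.02 for IL-4 in knockout cells, 0.0011 for the knockout without IL-4 and -0.05 for the knockout with IL-4 (unadjusted p of 2.3e-06, 0.0147, 0.879 and 2.3e-12, Fisher's exact test). H2-D1 made up 67.5% to 72.4% and H2-K1 15.4% to 17.6% of the sum. Among the 17 other class I heavy chains listed (H2-M2 and H2-M3 included), 3 were called higher with IL-4 in wild-type cells (H2-Q6, H2-Q7 and H2-Q9) and 2 in knockout cells (H2-Q6 and H2-Q9), all from the group above, with a median of 0.19 and 0.23. Of all genes 4.91% and 5.29% were called higher in these comparisons. In the knockout 1 was called higher (H2-Q9) and 1 lower (H2-Q7) without IL-4, and 3 higher (H2-Q9, H2-T24 and H2-M2) and 1 lower (H2-Q7) with IL-4, with medians of 0.08 and 0.03. Without IL-4 0.839% of all genes were called higher in the knockout and 0.742% lower, and with IL-4 3.05% and 0.764%. H2-M2 was scarce, at 2.36, 3.30, 3.98 and 5.32 FPKM. With both genotypes given IL-4, its log2 ratio of knockout to wild-type cells was 0.67 (SE 0.24, Fisher's exact test, adjusted p = 0.0267). Between treated and untreated cells H2-M2 had log2 ratios of 0.47 in wild-type and 0.41 in knockout cells, which were not called. Of those with a mean of at least 10 FPKM, H2-K2, H2-M3, H2-Q4, H2-Q5, H2-T22 and H2-T23 were called in no comparison, and H2-T23 (Qa-1), which presents leader peptides to NK cell receptors, had log2 ratios with IL-4 of 0.28 and 0.14. H2-T24 was at 29.1, 21.4, 41.2 and 38.3 FPKM, and was called higher in the knockout with IL-4 (log2 ratio 0.83, SE 0.08). Without IL-4 it was also higher in the knockout (0.50, SE 0.07), past counting error but under 1.5-fold and so not called.

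The knockout was set against wild-type cells next. Whether the wild-type littermates carried LysM-Cre is not given in the sources used here, and Lyz2, as given above, was lower in both knockout libraries. Loss of Trim24 and the Cre insertion therefore cannot be told apart. Without IL-4, 0 of 10 members were called higher (0.839% of 15623 genes were) and 0 lower (0.742%), with a median log2 ratio of 0.04 beside -0.0038 over all genes. Log2 ratios ran from -0.03 to 0.46 and the highest was that of Psmb9. By Fisher's exact test, whatever the fold, 5 of 10 had an unadjusted p under 0.05 (16.4% of all genes) and 2 of 10 an adjusted p under 0.05 (6.63% of all genes). These 2, B2m (0.04) and H2-D1 (-0.03), differed by less than 1.03-fold. With IL-4, 1 of 10 was called higher (3.05% of 15573 genes) and 0 lower (0.764%), with a median of -0.02 beside 0.02, and 5 of 10 had an adjusted p under 0.05 whatever the fold (19.9% of all genes). The member called was Nlrc5, with a log2 ratio of 1.15 (SE 0.18, Fisher's exact test, adjusted p = 3.2e-11), or 2.22-fold, which came to 0.83 (adjusted p = 9.5e-06) with the length trend removed and was not called when a coefficient of variation of 0.2 was assumed. That trend was steepest in this comparison, with a Spearman's rho of 0.51 across 10520 genes. B2m (-0.18), Psmb9 (-0.16), Psmb10 (-0.09) and Psmb8 (-0.04), all short transcripts, were at -0.01, 0.02, 0.05 and 0.11 once it was removed.

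Whether the genotypes answered IL-4 differently was tested directly, as the difference of the log2 responses against counting error, over the 10532 genes that averaged 1 FPKM or more. Nlrc5 had the higher response in knockout cells, with a difference of 1.02 (95% counting interval 0.57 to 1.48, adjusted p = 2.2e-04), where 2.37% of genes were called in that direction. Psmb9 had the lower response in knockout cells, with a difference of -0.62 (-1.03 to -0.21, adjusted p = 0.0253), where 0.494% of genes were. With the length trend removed the difference was 0.74 for Nlrc5 (adjusted p = 0.0287) and -0.50 for Psmb9 (adjusted p = 0.161), so that the call of Psmb9 was lost. The 95% counting intervals of the other members lay between -0.29 and 0.38, and the differences of -0.22 for B2m and -0.05 for H2-D1 were past counting error but not past 1.5-fold. With the length trend removed they were -0.10 and -0.0031, the latter within counting error (adjusted p of the normal test 0.940).

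All 4 libraries were also put into 1 edgeR fit in which genotype and treatment add up, which leaves 1 residual degree of freedom and treats the genotypes as replicates of the treatment. The IL-4 effect was called for 3 of 10 members, all higher, where 12.0% of 11791 genes were called higher and 13.3% lower. They were Psmb10 (log2 2.29, adjusted p = 3.6e-10), Psmb9 (0.47, adjusted p = 0.0353) and Tapbp (0.33, adjusted p = 0.0109), and the call of Psmb9 was lost in 3 of 4 other fits. The genotype effect was called for 0 of 10 members (1.29% of genes higher, 0.373% lower), and the largest was that of Nlrc5 (0.65, adjusted p = 0.113). Nlrc5 was also the 1 member with an unadjusted p under 0.05, and DESeq2 and limma on log2(FPKM + 0.1) called 0 of 10, with the same 1 member at an unadjusted p under 0.05. With upper-quartile scaling edgeR called Nlrc5 (0.62, adjusted p = 0.0021).

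The genes around the pathway were taken as lists. Of the 9 loading chaperones and trimming genes, among them Calr, Canx and Pdia3 of the loading complex, 0 were called higher, and Lnpep, an endosomal aminopeptidase, was lower with IL-4 in wild-type cells, from 11.2 to 5.55 FPKM (log2 ratio -1.0), with 10.9 and 8.11 FPKM in knockout cells. The medians of this list with IL-4 were 0.07 and 0.11 in the 2 genotypes. Of the 9 partners that work with NLRC5 or its class II relative CIITA at promoters (Rfx5, Rfxank, Rfxap, the NF-Y subunits, Creb1, Atf1 and Ciita), 0 were called in any comparison, with medians of 0.14 and 0.02. Of 6 class I-like genes 4 were listed, and Hfe, which pairs with beta-2-microglobulin and controls iron uptake, was higher with IL-4 in both genotypes, from 9.29 to 21.7 FPKM in wild-type and from 9.72 to 20.9 FPKM in knockout cells (log2 ratios 1.22 and 1.10). The medians of those 4 with IL-4 were -0.03 and 0.14.

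Among 17 interferon and NF-kB regulators, 15 were listed and Ifng and Ifnb1 were not. With IL-4, 2 were called higher in wild-type cells (4.91% of all genes were) and 3 in knockout cells (5.29%). In both genotypes 0 were called lower (7.88% and 4.03% of all genes), and the medians were 0.17 and 0.21. Irf1, a transcription factor that induces immunoproteasome genes, was at 22.1, 55.8, 26.6 and 49.0 FPKM, high in both treated libraries. Jak2, a kinase of the interferon-gamma receptor, was at 10.1, 26.4, 10.3 and 29.0 FPKM, high in the same libraries. Nfkb1, an NF-kB subunit, was called in knockout cells, with a log2 ratio of 0.68, and was at 0.30 in wild-type cells, past counting error (Fisher's exact test, adjusted p = 2.2e-06) and under 1.5-fold.

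Of 16 interferon-gamma-type target genes 15 were listed. With IL-4, 5 were called higher in wild-type (Gbp2, Ifi47, Tgtp2, Cd274 and Socs1) and 4 in knockout cells (without Gbp2), where 4.91% and 5.29% of all genes were. In both genotypes 0 were called lower (7.88% and 4.03% of all genes). The medians were 0.15 and 0.15 beside -0.03 and 0.00 over all genes. Socs1, a feedback inhibitor of cytokine signalling, was at 0.83, 26.1, 0.98 and 22.9 FPKM. Cd274 (PD-L1), the ligand of an inhibitory T cell receptor, was at 24.8, 41.1, 29.6 and 44.6 FPKM, and Ifi47 at 3.97, 8.59, 4.44 and 8.52 FPKM. The remaining 10 or 11 genes, such as Gbp3, Gbp5, Irgm1, Irgm2, Igtp, Cxcl9 and Cxcl10, were not called with IL-4. In each genotype 8 of the 15 listed genes had a log2 ratio above 0. In wild-type cells Gbp5 went from 7.01 to 4.85 FPKM, Gbp3 from 2.94 to 2.27 and Irgm2 from 5.84 to 4.54, while Igtp went from 6.65 to 7.39. Between genotypes 0 genes of the regulator and target lists were called with or without IL-4. Of all genes 0.839% were called higher in the knockout and 0.742% lower without IL-4, and 3.05% and 0.764% with it. At these shares, 0 calls in such lists is no result about them.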

How the data were processed

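Total RNA of 4 libraries was sequenced on an Illumina HiSeq. Per the study's methods, the authors aligned reads with Bowtie (build GRCm38, mm10) and counted genes with RSEM (versions not given in the sources used here). The deposited files hold RSEM expected counts, which need not be whole, and the authors' FPKM, scaled to transcript length and library total, with 2 decimals. Unlisted genes were set to 0.

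Expected counts were rounded to whole numbers for all tests. Fisher's exact tests and intervals used scipy 1.17.1, and the additive fits edgeR 4.0.16 (TMM, filterByExpr), DESeq2 1.42.0 and limma 3.58.1. SE is the square root of the summed reciprocals of counts plus 0.5, in log2 units. The length trend is a lowess curve (fraction 0.3) over log2 length, fitted to genes of 200 bases or more that averaged 1 FPKM or more. Scripts were tested on simulated counts. Of 16403 gene IDs, 16365 matched RefSeq (GRCm38.p6). Named genes were the members, Trim24, Arg1, Psmb5 to Psmb7, class I heavy chains averaging 10 FPKM or more, and up to 4 called genes per list averaging 5 FPKM or more; others are named to fill out small counts. Members, lists, motifs and tests were chosen with earlier results of these data known. The class I sum leaves out H2-DMa, H2-DMb1, H2-DMb2 and H2-Ke6, which are no class I genes. Alternatives are in the closing section. One gene of the lists was counted with them and is not otherwise reported here.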

Additional observations from a re-analysis of the deposited data

Results flagged for a closer look

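In 2 members the response to IL-4 differed between the genotypes by a direct test of the difference. Nlrc5 was at 171 and 97 reads in wild-type and 193 and 219 reads in knockout cells without and with IL-4, a difference of 1.02 log2 units (knockout minus wild-type). Psmb9 was at 140 and 246 reads in wild-type and 193 and 216 reads in knockout cells, a difference of -0.62 log2 units. Each rests on 1 low library, that of IL-4-treated wild-type cells for Nlrc5 and that of untreated wild-type cells for Psmb9, and no library could be left out because each group holds 1. Both tests measure counting error only.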

How the results depend on the processing

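No paired analysis was possible because each group holds 1 library and no replicate numbers pair the libraries, and none was left out for the same reason. The additive fit does set treated against untreated libraries within each genotype, with genotype as a term. In wild-type cells the count of members called higher with IL-4 was 1 in place of 2 at a fold above 2 and in edgeR's exact test with biological variation set to a coefficient of 0.2, which left Psmb10. The count called lower was 0 in place of 1 with a pseudocount of 1, a fold above 2, the assumed variation or the length trend removed. In the knockout with IL-4 the count called higher was 0 in place of 1 under the assumed variation. The difference of responses called 0 members higher in the knockout at a mean of at least 5 FPKM, which Nlrc5 does not reach, and 0 lower with the length trend removed. The additive genotype effect called 1 member higher with upper-quartile scaling (Nlrc5, 0.62, edgeR adjusted p = 0.0021, against 0.113 to 1.0 in the other fits), and the IL-4 effect of Psmb9 was lost with DESeq2, limma and all genes with a read (adjusted p of 0.454, 0.0503 and 0.16).

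Signs turned only in members that were not called. They were H2-D1 for IL-4 in wild-type cells (0.0046, TMM) and, in the knockout with IL-4, H2-K1 (-0.016 with TMM, -0.014 with DESeq2 size factors), Tap2 (-0.018 and -0.016), and Psmb8 (0.11), Psmb9 (0.024) and Psmb10 (0.049) with the length trend removed. The same removal turned the difference of responses of H2-K1 (0.019) and Psmb8 (0.061), and upper-quartile scaling the genotype effect of H2-K1 (-0.011) and Tap2 (-0.027). With H2-K1 and H2-D1 alone, the sum was 0.0058 for IL-4 in wild-type cells (unadjusted p = 0.439, Fisher's exact test) and -0.021 for the knockout without IL-4 (unadjusted p = 0.0055); with H2-DMa, H2-DMb1, H2-DMb2 and H2-Ke6 added, chosen after seeing the data, it was -0.014 for IL-4 in knockout cells (unadjusted p = 0.0521). The cause was not tested. Of 429 values of single members under an alternative, 405 kept their direction and side of the threshold. The filter of 1 FPKM, the fold above 2 and the assumed variation leave the log2 ratio as it was, so direction could not turn under them. Most members were also not called at the outset, so this count is no measure of how firm the calls are. With 97 to 246 reads, Nlrc5 and Psmb9 had the widest intervals.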

Other observations

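Neighbours of the members on the chromosome were read as well, within 10000 bases, and were chosen for mention after their values were seen. Slc12a4, a potassium-chloride cotransporter gene 5197 bases from Psmb10, was at 579, 1640, 616 and 1772 reads in untreated wild-type, IL-4-treated wild-type, untreated knockout and IL-4-treated knockout cells. Like Psmb10 it was higher with IL-4 in both genotypes, with log2 ratios of 1.47 (SE 0.07, Fisher's exact test, adjusted p = 1.6e-110) and 1.52 (SE 0.07, adjusted p = 6.9e-127). Lcat, which lies between the 2 genes and encodes a cholesterol-esterifying enzyme, had only 2, 12, 2 and 18 reads. It was called higher with IL-4 in wild-type (log2 ratio 1.95) and knockout cells (2.50). The wild-type call was lost with the length trend removed (1.83). Pskh1, 3925 bases from Psmb10, had 362, 341, 376 and 357 reads and was called in no comparison.

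Cpne2, a copine gene 5401 bases from Nlrc5, was lower with IL-4 in both genotypes. It was at 716, 364, 635 and 327 reads, with log2 ratios of -1.0 (SE 0.09) and -0.95 (SE 0.10), which came to -1.04 and -0.97 with the length trend removed. Nlrc5 was called lower in wild-type cells only, and its log2 ratio in knockout cells was 0.18. Pfdn6, a prefoldin gene 9618 bases from Tapbp, was at 345, 500, 304 and 437 reads, with log2 ratios of 0.51 and 0.51 with IL-4, which were not called.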
